A study of Mus musculus with 20 samples.

Results

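Solute carriers are the membrane proteins that move nutrients, ions, metals, vitamins and metabolites into and out of cells and organelles, and their genes carry the prefix Slc followed by a family number. The members described here were all genes with such a symbol on an Affymetrix Mouse430_2 array whose signal exceeded the array median on 3 or more of 20 liver arrays. Genes for glucose release and uptake, bile salt uptake, iron export, the urea cycle and acute-phase zinc handling (11 symbols, listed with the left-out solute carriers at the end) were not members. The array held 347 Slc symbols with a probe set assigned to 1 gene. Of the 336 that remained eligible, 236 passed the filter and 100 did not, against 12832 genes of any kind that passed of 18193 on the array. Each gene was read from the probe set with the highest mean, and values are log2(intensity + 6) after quantile normalization, on which the median of every array was 4.6. A signal at or below that median was treated as too low to give a level. Of the members, 156 were above the array median on all 20 arrays and none was above it in arrays of a single group alone. Just inside the filter were 8 genes above the median on 3 arrays, with mean levels from 3.63 to 4.31, among them Slc7a5 and Slc16a8. Just outside it were 13 genes above the median on 2 arrays, with means from 3.72 to 4.32, among them Slc7a11 and Slc16a3.

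The animals were male C57BL/6 mice aged 8 to 12 weeks, and RNA came from whole liver. Non-manipulated controls gave 5 arrays, mice with a minor trauma 3, and mice with severe trauma and 1.5 h of hemorrhagic shock 4, while the same injury followed by 1 h or by 4.5 h of resuscitation gave 4 arrays each. The design therefore asks how the liver responds to the severity of injury and to the time after it. No group is labeled as kept for 1 h or 4.5 h after shock without resuscitation, so elapsed time and resuscitation cannot be told apart. The sources used here do not give what the minor trauma consisted of, when those livers were taken or whether the controls were anesthetized. Between minor trauma and shock, severity and time therefore cannot be told apart either. The labels number the arrays of a group but do not say that each came from its own mouse, so p-values measure the spread between these arrays, and the small number of arrays limits their precision.

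In the liver these carriers sit on the blood side of the hepatocyte, on its bile side and on inner membranes. Families such as Slc1, Slc6, Slc7 and Slc38 carry amino acids, Slc2 sugars, Slc16 lactate, ketone bodies and related acids, Slc30 and Slc39 zinc, and Slc41 magnesium. The Slc25 family, the most numerous among the members, lies mainly in the mitochondrial inner membrane and links the citric acid cycle, the urea cycle and fatty acid oxidation to the cytosol. Slc35 proteins carry mainly nucleotide sugars into the Golgi apparatus and endoplasmic reticulum.

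The median deposited intensity of an array ranged from 14.05 to 29.11, and 2% trimmed means spanned 2.565-fold before normalization. A bacterial spike-in transcript, dap, gave signal on 10 arrays and next to none on the other 10, with both kinds in every group. Control 5 resembled minor trauma 2 more than any other array (r = 0.9827 over all genes kept), and minor trauma 1 was most like control 5 (r = 0.9798). Some results that rest on these groups, but not all, are therefore also given with control 5 left out. That array was picked on these same data for its likeness to minor trauma. Where it lies near the injured groups, leaving it out enlarges the difference from control. The larger changes and smaller p-values without control 5 are therefore no added support for a call. Minor trauma 3 was the array least like any other (its highest r was 0.9497). It also had the lowest weight when arrays were weighted by their spread (0.1769). Of 5 hepatocyte markers, Tat was called higher at 4.5 h (0.63, adjusted p = 0.0278) and Cps1 lower (-0.19, adjusted p = 0.00209). The mean log2 level of the 5 hepatocyte markers stayed between 12.73 and 13.11 on all 20 arrays. That of 7 neutrophil markers was 4.36 to 5.27 in controls, 5.31 to 5.67 after minor trauma, 5.53 to 6.69 in shock, 6.97 to 7.47 at 1 h and 7.41 to 7.58 at 4.5 h of resuscitation, while Ly6g, Camp, Cxcr2 and Retnlg did not pass the filter. Over 5 Kupffer cell markers the mean level was 7.88 to 8.47 in controls and 7.0 to 7.36 at 4.5 h, where 4 were called lower and Marco was called higher (1.36, adjusted p = 0.00408). In whole liver, fewer cells of a type and less RNA per cell cannot be told apart, and the part of these markers in the results below was not tested.

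In a limma fit of all 5 groups with Benjamini-Hochberg adjustment over the 12832 genes, a change was called at an adjusted p of 0.05 or less. Over the 5 groups the F test called 123 of 236 members (52.1%), against 45.4% of all genes. In 1 or more of the 4 comparisons with control, 122 members were called (51.7%, against 43.7% of all genes) and 114 in none. No member was called in all 4 comparisons with control, and none was called higher in 1 of them and lower in another. After minor trauma 14 members were called (5.93%, against 3.44% of all genes), 11 of them higher (2.07% of all genes) and 3 lower (1.37%). In shock 7 were called (2.97%, against 3.11%), 6 higher (2.03%) and 1 lower (1.08%). At 1 h of resuscitation 27 were called (11.4%, against 9.91%), 17 higher (4.61%) and 10 lower (5.31%). By 4.5 h the number was 110 (46.6%, against 38.9%), with 37 higher (15.7% of members, 15.1% of all genes) and 73 lower (30.9% of members, 23.8% of all genes). In shock and at 1 h the members' share lay near that of all genes, and at 4.5 h it was higher by the calls lower rather than by the calls higher. The median log2 change of the 236 members was 0.07 for minor trauma, -0.03 for shock, -0.05 for 1 h and -0.14 for 4.5 h of resuscitation, beside -0.002, -0.03, -0.07 and -0.09 for all genes.

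**Figure D1:**
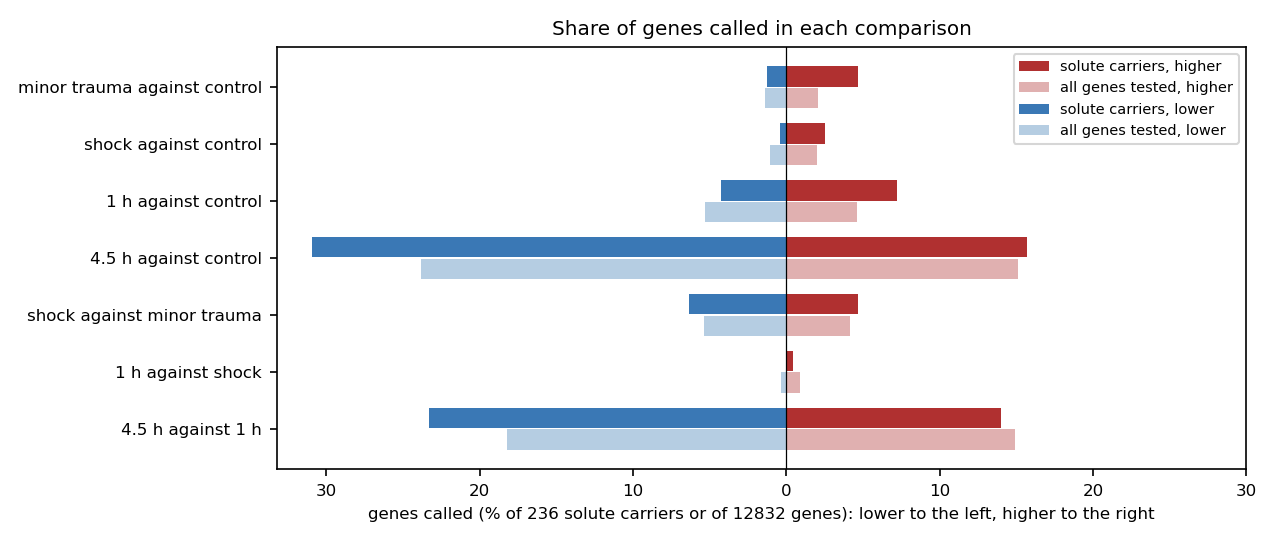
Share of genes called higher (to the right of 0) and lower (to the left of 0) in each of the 7 comparisons, in percent, for the 236 solute carriers and for all 12832 genes kept. The longest bars are those of 4.5 h against control, where 30.9% of the solute carriers and 23.8% of all genes were called lower.

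A small group of carriers rose in shock and at 1 h of resuscitation and was no longer called at 4.5 h. Slc45a3 (a sugar carrier family member), Slc25a32 (the mitochondrial folate carrier), Slc16a6 (a ketone body exporter), Slc20a1 (a sodium-phosphate cotransporter), Slc25a33 (a mitochondrial pyrimidine nucleotide carrier) and Slc25a47 (a liver-specific mitochondrial carrier) were higher in shock by 1.76-fold to 3.19-fold. At 4.5 h the largest difference left among the 6 was the 0.78 of Slc20a1, which missed the threshold (adjusted p = 0.0543). The only member called lower in shock, the orphan monocarboxylate carrier family member Slc16a4, followed the mirror course. All 7 genes called in shock were called in the same direction at 1 h, but both comparisons use the same 5 controls, so this is no independent support.

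These 6 genes have little in common by family: 3 are Slc25 members and the others belong to families 16, 20 and 45. They were picked by their calls in shock, so their shared rise there is how they were chosen. Their promoters are shown as far as the RefSeq table (build GRCm38.p6) holds them, which is for 4 of the 6. Each window is the 250 bases before the first listed transcription start, 5′ to 3′ on the strand of the gene, and capitals mark the E-box letters CACGTG.
Slc45a3, chr1:131962665-131962914, plus strand: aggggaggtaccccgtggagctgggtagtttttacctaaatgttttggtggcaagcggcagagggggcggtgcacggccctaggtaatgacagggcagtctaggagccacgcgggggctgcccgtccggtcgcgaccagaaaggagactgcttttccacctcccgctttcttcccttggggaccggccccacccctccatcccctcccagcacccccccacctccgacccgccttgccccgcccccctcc
Slc20a1, chr2:129198523-129198772, plus strand: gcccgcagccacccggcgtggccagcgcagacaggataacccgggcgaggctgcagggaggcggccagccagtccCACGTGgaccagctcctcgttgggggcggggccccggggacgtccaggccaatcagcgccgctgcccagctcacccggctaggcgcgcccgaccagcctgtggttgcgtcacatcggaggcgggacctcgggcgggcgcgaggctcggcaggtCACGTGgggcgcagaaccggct
Slc25a33, chr4:149774268-149774517, minus strand: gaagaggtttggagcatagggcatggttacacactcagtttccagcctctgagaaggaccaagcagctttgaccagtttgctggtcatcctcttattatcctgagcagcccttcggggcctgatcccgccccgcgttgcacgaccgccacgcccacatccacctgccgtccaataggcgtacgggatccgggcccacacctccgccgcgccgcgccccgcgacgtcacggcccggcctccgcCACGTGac
Slc25a47, chr12:108850879-108851128, plus strand: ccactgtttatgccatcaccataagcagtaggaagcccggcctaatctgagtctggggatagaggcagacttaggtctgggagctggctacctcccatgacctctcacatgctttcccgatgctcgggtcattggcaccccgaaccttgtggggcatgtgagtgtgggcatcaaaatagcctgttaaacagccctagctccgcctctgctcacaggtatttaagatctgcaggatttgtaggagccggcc
The E-box letters stood in 2 of these 4 windows, at 175 and 22 bases before the start in Slc20a1 and at 8 bases before it in Slc25a33. Windows of the same length held them in 6.05% of 27025 genes and in 24 of the 184 members with an entry (13%). None of the 4 windows held, on either strand, the cAMP response element TGACGTCA (1.62% of all genes), the AP-1 letters TGANTCA (6.87%), the C/EBP-ATF letters TGATGNAA (3.53%), an NF-kB site (1.17%) or the STAT letters TTCCNGGAA (0.914%). A match is a run of letters, and a missing one says only that the letters are not in this window.

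Slc25a32, which brings folate into mitochondria for one-carbon metabolism, stood at 6.19, 6.07, 6.18, 6.45 and 6.80 in the 5 controls and at 6.92, 7.29 and 7.34 after minor trauma. In shock it reached 7.69, 8.38, 8.14 and 7.84, and at 1 h 8.15, 7.97, 7.83 and 8.27, before 6.55, 6.55, 6.29 and 6.41 at 4.5 h. The minor trauma arrays thus lay between the controls and the shocked livers with no overlap on either side, and the 4.5 h arrays lay within the range of the controls. Its log2 change was 0.84 ± 0.18 (SE) after minor trauma (adjusted p = 0.0189), 1.67 ± 0.16 in shock (adjusted p = 5.69e-07) and 1.72 ± 0.16 at 1 h (adjusted p = 1.86e-07). Between shock and minor trauma it differed by 0.83 ± 0.18 (adjusted p = 0.00718), and from 1 h to 4.5 h it fell by 1.61 on the log2 scale (adjusted p = 4.16e-07). Of its 2 other probe sets 1 was called in the same direction in shock and at 1 h and 1 had the opposite sign in all 3 comparisons. With the mean of the probe sets the minor trauma difference was 0.24 and not called, and shock and 1 h were 0.95 and 1.04, both called. With the values as deposited the minor trauma and the shock against minor trauma calls ended (adjusted p = 0.0596 and 0.422), and the minor trauma call also ended without control 1, control 2 or minor trauma 3 (adjusted p of at most 0.114).

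Slc45a3 measured 7.82, 7.61, 7.16, 6.92 and 7.36 in controls, 7.27, 7.84 and 8.46 after minor trauma, and 9.06, 8.86, 9.01 and 8.68 in shock. It kept 8.75, 8.01, 8.76 and 9.09 at 1 h and was 7.17, 6.76, 7.43 and 6.63 at 4.5 h. Every shock and 1 h array was above every control and every 4.5 h array. The rise was 1.53 ± 0.24 in shock (2.88-fold, adjusted p = 0.000394) and 1.28 ± 0.24 at 1 h (adjusted p = 0.00112), and the 0.48 after minor trauma was not called (adjusted p = 0.299). Shock exceeded minor trauma by 1.05 ± 0.27 (adjusted p = 0.0181), a call that ended without minor trauma 1 (adjusted p = 0.0901).

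Slc16a6, which exports the ketone body beta-hydroxybutyrate from hepatocytes, read 5.94, 6.37, 5.65, 5.50 and 6.51 in controls. Its values were 7.03, 7.19 and 6.78 after minor trauma, 7.91, 7.84, 7.24 and 6.82 in shock, 7.62, 7.35, 7.32 and 8.30 at 1 h, and 6.69, 5.82, 6.40 and 6.13 at 4.5 h. All arrays of the 3 injured groups before 4.5 h were above all controls. The log2 change was 1.46 ± 0.26 in shock (adjusted p = 0.00142) and 1.66 ± 0.26 at 1 h (adjusted p = 0.000137). After minor trauma it was 1.01 ± 0.28 with an adjusted p of 0.0494, at the edge of the threshold, and 17 of 20 omissions of a single array ended that call, with an adjusted p of at most 0.137.

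Slc25a47, a mitochondrial carrier expressed mainly in liver, was 11.48, 11.68, 11.70, 12.39 and 12.62 in controls, so controls 4 and 5 were already high. It was 12.68, 12.80 and 12.94 after minor trauma, 12.73, 12.84, 12.79 and 12.78 in shock, 12.86, 12.75, 12.51 and 12.96 at 1 h, and 11.92, 11.96, 12.04 and 12.05 at 4.5 h. Changes against control were of like size in the 3 groups, at 0.83 ± 0.18, 0.81 ± 0.17 and 0.80 ± 0.17 (adjusted p = 0.021, 0.00595 and 0.00276). Without control 5 the minor trauma difference was 0.99, and from 1 h to 4.5 h the gene fell by 0.78 on the log2 scale (adjusted p = 0.00155).

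Slc25a33, which brings pyrimidine nucleotides into mitochondria, was 8.03 to 8.72 in controls, 7.72 to 8.99 after minor trauma, 9.02 to 9.34 in shock, 9.12 to 9.76 at 1 h and 7.75 to 8.15 at 4.5 h. It rose by 0.82 ± 0.20 in shock (adjusted p = 0.0226) and by 1.01 ± 0.20 at 1 h (adjusted p = 0.00171), with no overlap with controls. The call in shock ended without control 3, shock 1 or shock 3 (adjusted p of at most 0.0881). Slc20a1, which brings phosphate into cells with sodium, was 7.18, 6.98, 7.83, 8.40 and 9.26 in controls and 9.17, 9.14 and 9.22 after minor trauma. Shock gave 8.70, 9.42, 9.0 and 9.46, 1 h gave 9.83, 9.12, 9.79 and 9.55, and 4.5 h gave 8.52, 8.84, 8.93 and 8.55. Control 5 lay inside the range of the injured groups. The rise was 1.22 ± 0.31 in shock (adjusted p = 0.0336, and 1.55 with adjusted p = 0.000379 without control 5) and 1.64 ± 0.31 at 1 h (adjusted p = 0.00141). The call in shock ended without control 1, 2 or 3 or without shock 2, 3 or 4 (adjusted p of at most 0.122).

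Slc16a4 was 5.59, 6.05, 5.74, 5.74 and 5.65 in controls, 5.42, 5.29 and 4.20 after minor trauma, 5.03, 4.63, 4.86 and 4.68 in shock, 4.02, 5.18, 4.51 and 4.58 at 1 h, and 5.86, 5.50, 5.07 and 5.74 at 4.5 h. All shock and 1 h arrays were below all controls, and 3 of the 4 arrays at 1 h were below the array median. It fell by 0.95 ± 0.24 on the log2 scale in shock (adjusted p = 0.0324), and at 1 h it was at least 2.01-fold lower with the 3 low arrays set to the median (adjusted p of the fit = 0.00276). The call in shock ended without control 2, 3 or 4 or without shock 2, 3 or 4 (adjusted p of at most 0.107). Over the omissions of a single array, 4 to 11 members were called in shock, 4 of them without control 3 or without shock 3 and 11 without control 5. With trimmed mean scaling in place of quantile normalization the split in shock moved from 85.7% to 60.0% higher.

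**Figure D2:**
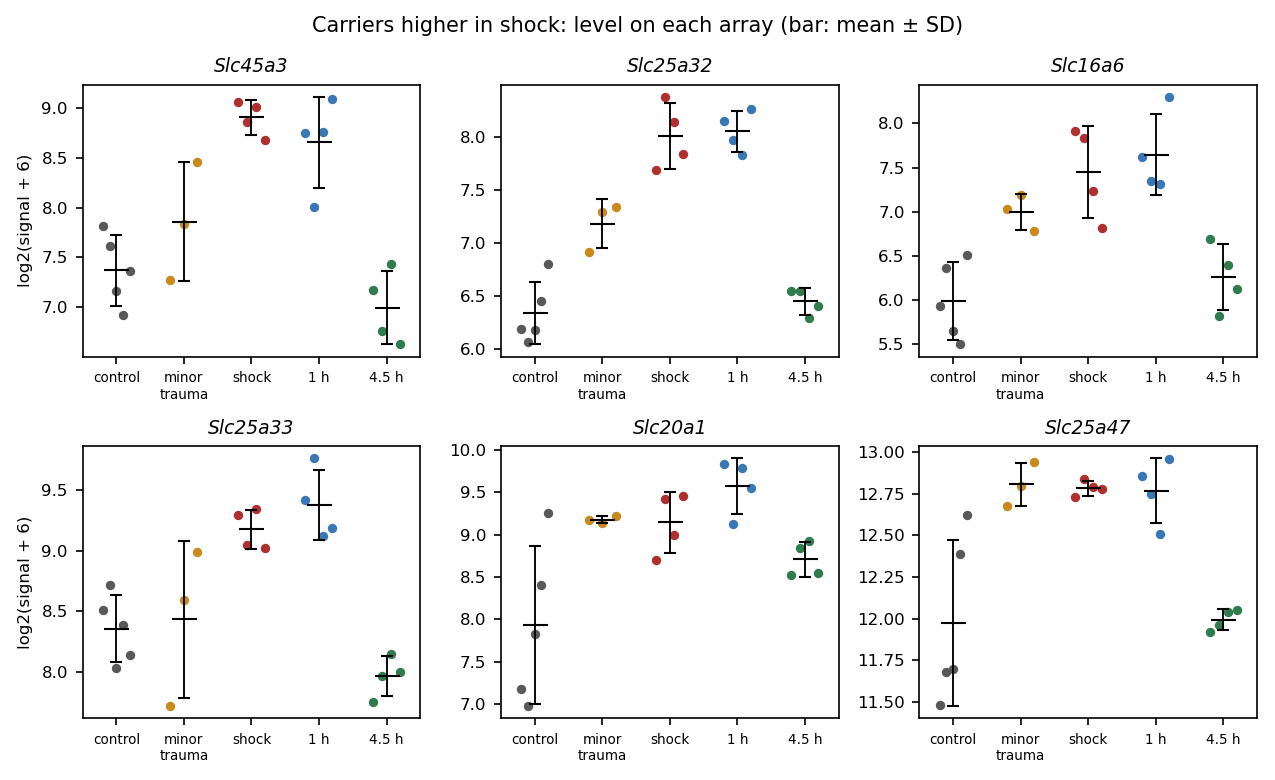
Log2 level on each array for the 6 solute carriers called higher in shock, by group; points are arrays and bars are the mean ± SD. In all 6 panels the shock and 1 h arrays lie above most controls, and the 4.5 h arrays lie back near them except in Slc20a1, where they lie above 4 of the 5 controls.

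Minor trauma and shock called partly different members. Of the 14 calls after minor trauma, 9 were called in minor trauma without being called in shock or at 1 h: Slc22a5 (the carnitine transporter), Slc30a5 (which loads zinc into the Golgi), Slc23a2 (a vitamin C transporter), Slc25a51 (the mitochondrial NAD carrier), Slc6a9 (a glycine transporter) and Slc25a12 (a mitochondrial aspartate-glutamate carrier) were higher, and Slc19a2 (a thiamine transporter), Slc39a8 (a zinc and manganese importer) and Slc5a3 (the myo-inositol transporter) were lower. All but Slc25a12 were called again at 4.5 h in the same direction, a time at which 38.9% of all genes were called. Both comparisons use the same 5 controls, so the repeat is no independent support. How often genes of any kind repeated in this way was not counted. The other 5 were Slc41a1 (a magnesium transporter), called also at both resuscitation times, and 4 of the 6 genes called higher in shock. Among these the call of Slc20a1 after minor trauma (1.25, adjusted p = 0.0482) ended in 18 of 20 omissions of a single array (adjusted p of at most 0.181).

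Slc25a51 was 8.40, 8.66, 9.55, 9.19 and 10.48 in controls and 10.42, 10.71 and 10.92 after minor trauma. It was 9.33, 9.25, 10.05 and 9.24 in shock, 10.03, 10.24, 9.83 and 10.20 at 1 h, and 10.61, 10.82, 10.82 and 10.85 at 4.5 h. Control 5 stood with the minor trauma arrays and the other 4 controls stood apart from them. The log2 difference was 1.42 ± 0.31 after minor trauma (adjusted p = 0.0202, and 1.73 with adjusted p = 6.9e-05 without control 5) and 1.52 ± 0.28 at 4.5 h (adjusted p = 0.000186). In shock the difference from control was 0.21 and not called (adjusted p = 0.82), and shock was below minor trauma by 1.21 ± 0.32 (log2 change -1.21, adjusted p = 0.0196). That last call ended without minor trauma 3, shock 2 or shock 4 (adjusted p of at most 0.0849).

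Slc30a5 had the same outline: 8.53, 8.24, 8.38, 8.52 and 9.52 in controls, 9.50, 9.49 and 9.67 after minor trauma, 8.37, 8.14, 8.32 and 8.04 in shock, 8.35, 8.82, 8.79 and 8.83 at 1 h, and 10.14, 10.25, 10.34 and 9.94 at 4.5 h. Again control 5 matched minor trauma, and the 4.5 h arrays were above all others. The gene rose by 0.92 ± 0.20 after minor trauma (adjusted p = 0.0219, and 1.14 with adjusted p = 3.43e-05 without control 5) and by 1.53 ± 0.19 at 4.5 h (2.89-fold, adjusted p = 1.45e-06). Shock lay below minor trauma by 1.34 ± 0.21 (log2 change -1.34, adjusted p = 0.000651).

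Slc22a5, which brings carnitine into cells for fatty acid oxidation, was 7.35, 7.63, 7.97, 8.64 and 8.58 in controls and 8.61, 9.03 and 9.53 after minor trauma. In shock it was 7.03, 6.97, 7.60 and 7.17, at 1 h 8.16, 8.44, 7.95 and 7.78, and at 4.5 h 8.69, 8.51, 9.12 and 8.90. The shock arrays were below all minor trauma, 1 h and 4.5 h arrays. It rose by 1.02 ± 0.26 after minor trauma (adjusted p = 0.037) and by 0.77 ± 0.24 at 4.5 h (adjusted p = 0.0145, a call that ended without 4.5 h array 3 at an adjusted p of 0.056). The difference between shock and minor trauma was -1.86 ± 0.28 (3.64-fold lower in shock, adjusted p = 0.000364), while the -0.84 between shock and control was not called (adjusted p = 0.0633).

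Slc23a2 was 6.94 to 7.67 in controls, 7.69 to 8.05 after minor trauma, 6.95 to 7.04 in shock, 7.03 to 7.41 at 1 h and 7.63 to 8.27 at 4.5 h. It rose by 0.70 ± 0.16 after minor trauma (adjusted p = 0.0249) and by 0.80 ± 0.15 at 4.5 h (adjusted p = 0.000214), but its other probe set moved with the opposite sign in both comparisons. Slc6a9 was 7.55 to 8.46 in controls, 8.84 to 9.02 after minor trauma and 8.41 to 9.20 at 4.5 h, and rose by 0.91 ± 0.20 and 0.88 ± 0.19 (adjusted p = 0.0224 and 0.000707). Slc25a12 was called after minor trauma alone of these 4 comparisons, at 0.60.

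Among the genes that were lower, Slc19a2 was 10.25, 10.25, 10.28, 10.01 and 9.45 in controls, 8.95, 9.19 and 9.49 after minor trauma, 10.22, 9.80, 9.80 and 10.11 in shock, 9.91, 9.54, 9.57 and 9.52 at 1 h, and 9.0, 9.41, 8.94 and 9.08 at 4.5 h. Control 5 again lay within the minor trauma range, and the 4.5 h arrays were below every control. This thiamine transporter fell by 0.84 ± 0.18 on the log2 scale after minor trauma (adjusted p = 0.0199) and by 0.94 ± 0.16 at 4.5 h (adjusted p = 0.000103). Slc39a8 was 7.93 to 8.18 in controls, 7.36 to 7.71 after minor trauma, 8.18 to 8.37 in shock, 7.97 to 8.10 at 1 h and 7.01 to 7.25 at 4.5 h. Minor trauma and 4.5 h arrays were below all controls, with falls of 0.42 ± 0.11 and 0.84 ± 0.10 (log2 change -0.42 and -0.84, adjusted p = 0.037 and 1.09e-06). Its other probe set had the opposite sign after minor trauma. Slc5a3 was 5.99 to 7.06 in controls, 4.29 to 5.93 after minor trauma and 5.53 to 6.07 at 4.5 h, and fell by 1.23 ± 0.29 and 0.80 ± 0.27 on the log2 scale (adjusted p = 0.0273 and 0.0217). With its minor trauma array below the array median set to it, the first fall was at least 2.19-fold. The call at 4.5 h ended without control 2 or 3 or without 4.5 h array 2 or 3 (adjusted p of at most 0.0668), and the other probe set had the opposite sign there.

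**Figure D3:**
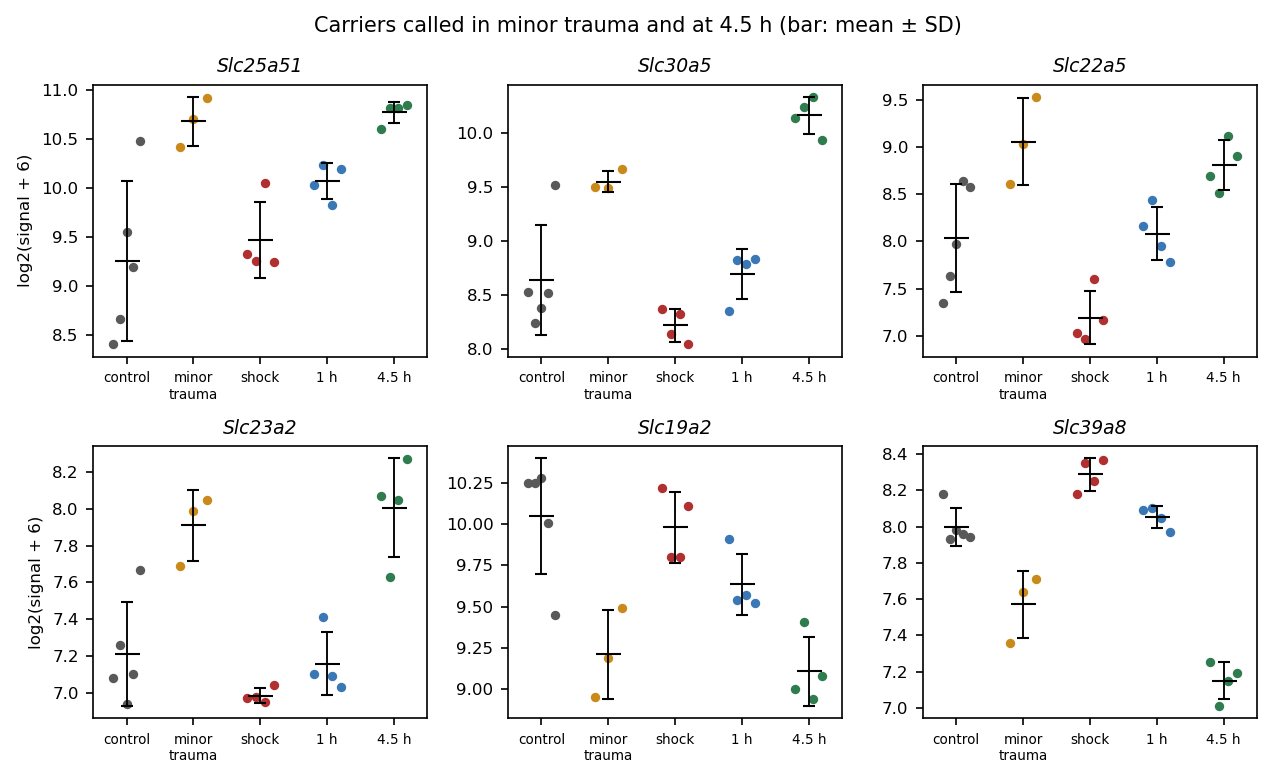
Log2 level on each array for 6 solute carriers called after minor trauma and again at 4.5 h, by group; points are arrays and bars are the mean ± SD. Slc25a51, Slc30a5, Slc22a5 and Slc23a2 are high after minor trauma and at 4.5 h and low in shock, Slc19a2 and Slc39a8 the reverse, and in all panels but that of Slc39a8 control 5 lies with or next to the minor trauma arrays.

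The count after minor trauma rests on single arrays. Without control 1, control 2 or minor trauma 3 it was 0 by limma, with 44, 44 and 36 members at an unadjusted p under 0.05, without control 3 it was 2, and without control 5 it was 29, which held all 14. With only these 2 groups in the fit it was 0 as well, with 32 at an unadjusted p under 0.05, and with the dap set as a block it was 8. The share called higher was 78.6%, and 100% with the values as deposited or 95.5% with median centring, settings that moved the median of all genes by 0.20 and 0.14.

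Set directly against minor trauma, shock differed in 26 members (11%, against 9.55% of all genes), 11 higher (4.18%) and 15 lower (5.38%). By scaling, the share higher of 42.3% became 10% as deposited and 14.3% with median centring. The largest difference was Slc16a5, a monocarboxylate carrier family member, at 5.33, 5.93 and 6.39 after minor trauma and at 2.91, 2.88, 2.99 and 4.36 in shock. No shock array exceeded the array median, so the gene was at least 2.43-fold lower (adjusted p = 0.00299). Slc41a1, Slc25a34 (a mitochondrial carrier of unassigned substrate) and, from the fuller list of calls, Slc39a7, Slc25a37 and Slc25a20 were lower as well, at -0.97, -1.12, -0.95, -0.86 and -0.66. The calls of Slc41a1 and Slc25a34 ended without any 1 of 4 and of 2 single arrays (adjusted p of at most 0.132 and 0.0832). Slc13a2, a dicarboxylate carrier, was 4.06, 3.84 and 4.89 after minor trauma and 5.51, 5.96, 5.56 and 6.29 in shock. All shock arrays were above all minor trauma arrays, 2 of which were below the array median, and the difference was at least 2.19-fold with those set to it (adjusted p of the fit = 0.0165, with the call ended without minor trauma 2 or shock 4 at an adjusted p of at most 0.054). Also higher in shock were Slc66a2 (0.82), Slc44a1, a choline carrier (0.80), and Slc22a30, an organic anion carrier (0.64), whose calls ended without any 1 of 5, 3 and 3 single arrays (adjusted p of at most 0.162, 0.0793 and 0.0644). The 1 other probe set of Slc44a1 had the opposite sign. The count of 26 was 13 without shock 4, 14 without shock 2 and 15 without minor trauma 3. Stellate and fibroblast markers (6 genes) had a mean level of 6.46 to 6.70 after minor trauma and 7.40 to 7.60 in shock, and their part in these differences was not tested.

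Between shock and 1 h of resuscitation a single member was called, Slc41a1 (1 of 236, 0.424%, against 1.25% of all genes), which was higher at 1 h (0.873% of all genes). None was called lower (0.374% of all genes) by limma, while 29 members in all had an unadjusted p under 0.05. Slc41a1, which moves magnesium across the cell membrane, was 5.88, 5.77, 6.03, 5.55 and 6.17 in controls, 6.99, 6.64 and 7.17 after minor trauma, 6.42, 5.87, 6.12 and 5.45 in shock, 6.34, 7.10, 7.31 and 7.76 at 1 h, and 7.93, 7.62, 7.70 and 6.93 at 4.5 h. All arrays of minor trauma and of both resuscitation times were above all controls, and the shock arrays overlapped the controls. The rise from shock to 1 h was 1.16 ± 0.26 (adjusted p = 0.0264), and the call ended without shock 2 or 4 or 1 h array 2, 3 or 4 (adjusted p of at most 0.127). Against control it was 1.25 ± 0.25 at 1 h (adjusted p = 0.00191) and 1.67 ± 0.25 at 4.5 h (adjusted p = 1.7e-05).

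Against control, however, 20 members were called at 1 h and not in shock, and 16 of the 27 calls at 1 h were called again at 4.5 h in the same direction. Of all genes, 3.11% were called in shock, 9.91% at 1 h and 38.9% at 4.5 h. The like overlaps over all genes were not counted, so these counts are not read as particular to the carriers. All these comparisons also share the same 5 controls. Members higher at both times were the amino acid carriers Slc38a2 (0.92 and 1.30), Slc7a1 (1.08 and 1.33), Slc43a1 (1.05 and 0.93) and Slc3a2 (0.44 and 0.57), the lactate carrier Slc16a1, the steroid sulfate carrier Slc10a6, the lysosomal peptide carrier Slc15a3, the hexose carrier Slc2a6, and Slc41a1. Lower at both were Slc16a5, Slc16a12, Slc1a2, Slc25a26, Slc25a45, Slc26a1 and Slc38a6, but the 1 other probe set of Slc25a26 had the opposite sign at 1 h. Called at 1 h alone were Slc2a3, a high-affinity glucose carrier, and Slc22a15 (0.51), both higher, and Slc25a34 and Slc4a1ap (-0.41), both lower.

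Slc2a3 was 4.28, 4.24, 4.61, 3.39 and 4.50 in controls, of which 1 array exceeded the array median, and 5.13, 5.46, 5.57 and 5.96 at 1 h. It was 4.48 to 5.34 after minor trauma, 4.47 to 5.27 in shock and 4.15 to 5.11 at 4.5 h. Every 1 h array was above every control, and with the 4 low controls set to the array median the rise was at least 1.90-fold (adjusted p of the fit = 0.00234). It fell by 0.84 ± 0.28 on the log2 scale from 1 h to 4.5 h (adjusted p = 0.0267, with the call ended without 1 h array 3 or 4 or 4.5 h array 1 at an adjusted p of at most 0.0974). Slc25a34 was 5.05 to 6.15 in controls and 4.08 to 5.03 at 1 h, lower without overlap by 1.05 ± 0.25 (log2 change -1.05, adjusted p = 0.00791). With its array below the array median at 1 h set to it, the fall was at least 1.89-fold. Of the genes lower at both times, Slc16a5 was 3.71, 3.71, 4.94, 6.16 and 5.81 in controls, and all 8 resuscitated arrays were below the array median, which bounds the fall at 1.2-fold or more (adjusted p = 0.0131 at 1 h and 0.00157 at 4.5 h). Slc38a6, an amino acid carrier, was 7.13 to 7.31 in controls, 6.51 to 6.82 at 1 h and 6.17 to 6.85 at 4.5 h, so that it fell without overlap by 0.54 ± 0.12 and 0.64 ± 0.12 on the log2 scale (adjusted p = 0.00603 and 0.000264). Slc1a2, the glutamate transporter of the cells around the central vein, fell by 0.91 ± 0.27 and 1.00 ± 0.27 on the log2 scale (adjusted p = 0.037 and 0.00563). Slc16a12, which carries creatine, fell by 0.84 ± 0.25 and 0.93 ± 0.25 (log2 change -0.84 and -0.93, adjusted p = 0.0361 and 0.0055). For the calls at 1 h, Slc1a2, Slc16a12, Slc25a26 and Slc26a1 lost theirs without any 1 of 4 to 7 single arrays (adjusted p of at most 0.144, 0.123, 0.143 and 0.132), Slc25a45 without 1 h array 2 (0.057) and Slc15a3 without 1 h array 3 (0.0515). The split at 1 h, 63.0% higher, was 80.0% as deposited and 78.9% with median centring.

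At 4.5 h of resuscitation 110 members differed from control, across nearly all substrate classes. A class was assigned by family number alone, so single members can differ from its name in substrate or place in the cell. Of these 110 members called, 39 had a fitted change of 2-fold or more (16.5% of members, against 12.5% of all genes), 19 higher and 20 lower. For some of these, arrays below the array median leave a lower bound under 2-fold. These are Slc16a5 (1.2-fold), Slc9a9 (1.43-fold), Slc16a9 (1.64-fold), Slc2a5 (1.73-fold) and Slc2a6 (1.90-fold). The arrays of the 2 groups did not overlap in 87 members (36.9%, against 30.8% of all genes). The 8 largest fitted rises were those of Slc10a6, Slc41a2, Slc7a6, Slc15a3, Slc39a10, Slc2a6, Slc13a5 and Slc10a2, carriers of steroid sulfates, magnesium, amino acids, peptides, zinc, hexoses, citrate and bile salts. Because controls of Slc7a6, Slc2a6 and Slc10a2 were at or below the array median on all or most arrays, their rises are lower bounds and have no order among the 8. The 8 largest fitted falls, of which those of Slc16a5, Slc9a3r2, Slc18b1 and Slc16a9 are likewise lower bounds, were those of Slc16a5, Slc26a1, Slc66a2, Slc9a3r2, Slc18b1, Slc16a9, Slc35g1 and Slc29a1.

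Slc10a6 takes up sulfated steroids with sodium. Its arrays read 5.10, 4.70, 5.22, 5.45 and 6.33 in controls, 5.64, 6.29 and 6.89 after minor trauma, 6.26, 5.99, 6.51 and 5.97 in shock, 7.01, 6.75, 7.23 and 7.01 at 1 h, and 9.10, 9.10, 8.99 and 8.90 at 4.5 h. The 1 h arrays were above all controls and all shock arrays, and the 4.5 h arrays stood more than 1 log2 unit above every other array. Its rise was 1.64 ± 0.25 at 1 h (adjusted p = 0.000133) and 3.66 ± 0.25 at 4.5 h (12.7-fold, adjusted p = 4.69e-10), and 2.02 ± 0.27 between them (adjusted p = 6.91e-06). After minor trauma and in shock the differences of 0.91 and 0.82 were not called (adjusted p = 0.0667 and 0.0861).

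Slc41a2, also a magnesium transporter, read 8.56, 8.35, 7.91, 6.17 and 8.75 in controls, 8.36, 9.11 and 9.44 after minor trauma, 8.41, 7.55, 8.36 and 7.38 in shock, 8.22, 8.58, 9.02 and 8.54 at 1 h, and 10.92, 10.86, 10.98 and 10.60 at 4.5 h. Control 4 was low, and the 4.5 h arrays were above all 16 others. The rise at 4.5 h was 2.89 ± 0.37 (7.43-fold, adjusted p = 3.25e-06), and from 1 h to 4.5 h it was 2.25 ± 0.40 (adjusted p = 0.000171). In the other 3 comparisons with control, Slc41a2 was not called.

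The promoters of these 2 genes are shown because theirs were the largest fitted rises at 4.5 h. Read in the same way (RefSeq, GRCm38.p6), they held none of the 6 motifs searched, so neither has capitals.
Slc10a6, chr5:103629404-103629653, minus strand: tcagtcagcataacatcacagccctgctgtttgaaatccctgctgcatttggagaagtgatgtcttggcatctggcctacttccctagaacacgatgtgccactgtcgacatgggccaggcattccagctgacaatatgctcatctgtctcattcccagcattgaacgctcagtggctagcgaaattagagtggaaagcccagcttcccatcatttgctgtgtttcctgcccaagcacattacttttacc
Slc41a2, chr10:83337818-83338067, minus strand: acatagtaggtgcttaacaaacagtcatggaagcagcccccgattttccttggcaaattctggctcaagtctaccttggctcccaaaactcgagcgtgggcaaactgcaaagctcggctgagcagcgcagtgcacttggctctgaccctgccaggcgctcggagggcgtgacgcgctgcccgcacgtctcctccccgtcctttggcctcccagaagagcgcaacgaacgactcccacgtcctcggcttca
Of the 7 members among these 8 rises that have an entry, Slc10a2 alone held a match, the AP-1 letters at 118 bases before its start.

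Slc7a6, the light chain of an exchanger of cationic and neutral amino acids, was at or below 3.90 in controls and in shock at or below 4.03, all under the array median. At 4.5 h its arrays gave 6.87, 6.17, 6.94 and 5.56, at least 3.43-fold above controls (adjusted p = 1e-07). Slc39a10, a zinc importer, was 5.36 to 5.68 in controls, 5.10 to 5.60 in shock, 5.07 to 5.93 at 1 h and 7.33 to 7.76 at 4.5 h, a rise of 1.93 ± 0.18 (3.80-fold, adjusted p = 3.19e-08). The difference between 1 h and control was -0.06 (adjusted p = 0.892), and from 1 h to 4.5 h it rose by 1.99 ± 0.19 (adjusted p = 7.35e-08). Slc13a5, the citrate importer of hepatocytes, was 5.11 to 5.71 in controls and 7.03 to 7.55 at 4.5 h, up by 1.89 ± 0.18 (adjusted p = 6.03e-08).

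Slc15a3, which carries peptides and histidine in lysosomes and is known from macrophages, was 5.51 to 5.85 in controls, 6.01 to 6.61 at 1 h and 7.39 to 7.80 at 4.5 h. It rose by 0.62 ± 0.15 at 1 h (adjusted p = 0.00928) and by 1.95 ± 0.15 at 4.5 h (3.85-fold, adjusted p = 2.4e-09). Slc2a6, a lysosomal hexose carrier, was below the array median in all controls, all minor trauma and all shock arrays, and gave 4.84, 5.48, 5.22 and 4.85 at 1 h and 5.38, 5.94, 5.64 and 5.15 at 4.5 h. Those rises were at least 1.41-fold and 1.90-fold (adjusted p = 6.32e-05 and 4.95e-07). Beside both genes stand the neutrophil markers, 5 of 7 called higher at each resuscitation time, and the 5 monocyte and macrophage markers, whose mean level was 7.28 to 7.87 in controls and 6.77 to 7.15 at 4.5 h. Slc10a2, the sodium-bile salt carrier of ileum and bile ducts, was 4.30, 3.59, 4.60, 3.81 and 6.13 in controls and 6.71, 6.67, 5.83 and 6.16 at 4.5 h. Of its controls only number 5 was above the array median, and it overlapped the 4.5 h range. With the other 4 set to that median the rise was at least 2.70-fold (adjusted p of the fit = 0.00152).

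**Figure D4:**
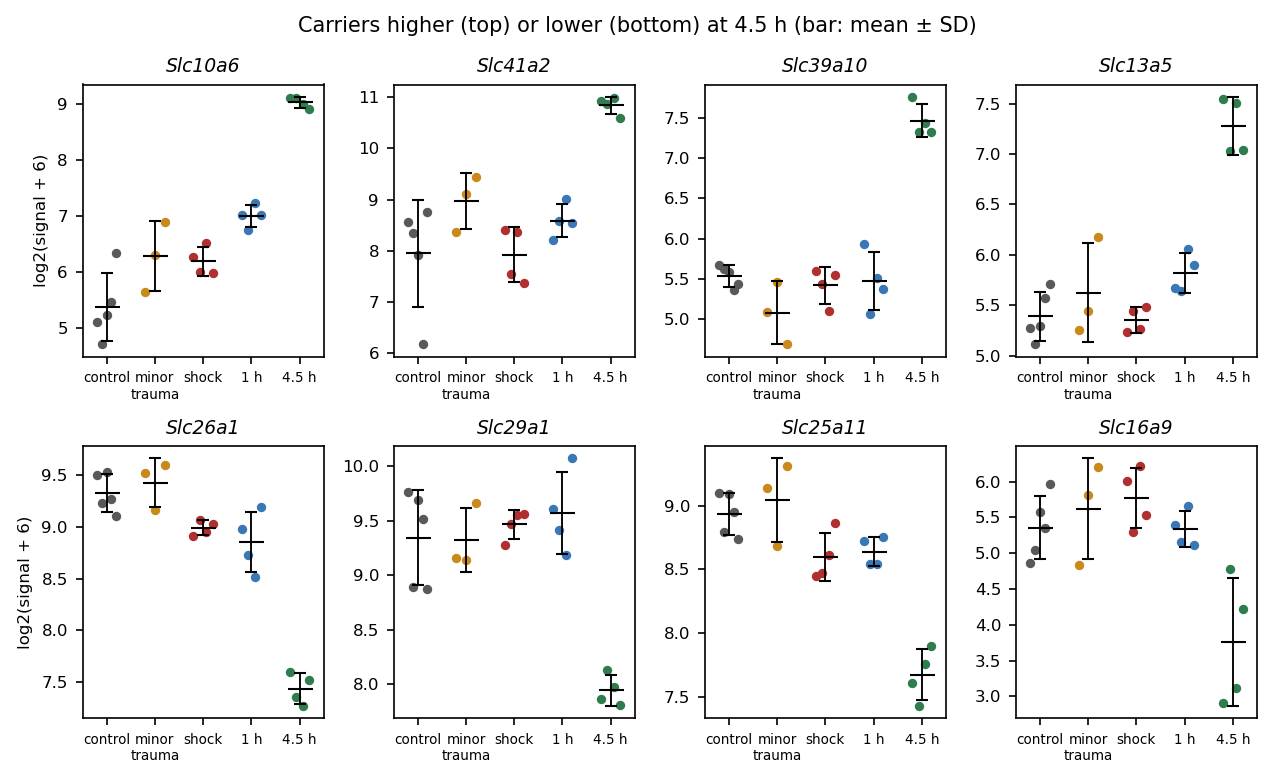
Log2 level on each array for 8 solute carriers with a large change at 4.5 h of resuscitation, by group; points are arrays and bars are the mean ± SD. In the upper row the 4 arrays at 4.5 h lie above all others for Slc10a6, Slc41a2, Slc39a10 and Slc13a5, and in the lower row they lie below all others for Slc26a1, Slc29a1, Slc25a11 and Slc16a9.

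The Slc25 family (39 members), classed here as mitochondrial carriers, gave 3 calls higher and 16 lower at 4.5 h (7.69% and 41%, beside 15.1% and 23.8% of all genes), and 20 were not called. Their median log2 change was -0.39 beside -0.09 for all genes. With the values as deposited the counts were 1 and 11. Slc25a11, which exchanges malate and oxoglutarate in the malate-aspartate shuttle, was 9.10, 8.79, 9.09, 8.95 and 8.74 in controls, 8.45, 8.47, 8.61 and 8.86 in shock, 8.72, 8.54, 8.54 and 8.75 at 1 h, and 7.61, 7.43, 7.76 and 7.90 at 4.5 h. All 4.5 h arrays were below all others, and it fell by 1.26 ± 0.14 on the log2 scale (2.39-fold, adjusted p = 2.88e-07). Other carriers of the shuttles and of fuel use were lower too, among them Slc25a13, the liver aspartate-glutamate carrier (-0.72), Slc25a1, the citrate carrier (-0.40), Slc25a20, which imports acylcarnitines (-0.51), Slc25a42, which imports coenzyme A (-1.37), and Slc25a23, a calcium-regulated ATP-magnesium carrier (-1.29). Of those that handle iron, Slc25a37 (mitoferrin-1) was lower (-0.79) and Slc25a28 (mitoferrin-2) higher (0.80). Slc25a45 and Slc25a26, which carries S-adenosylmethionine, fell at both resuscitation times, by 0.67 and 0.67 at 1 h and by 1.15 and 0.65 at 4.5 h on the log2 scale. The call of Slc25a26 at 4.5 h ended without 4.5 h array 3 (adjusted p = 0.075), and its 1 other probe set had the opposite sign at 1 h. Slc25a39, which brings glutathione into mitochondria, fell by a small amount without overlap, 0.29 ± 0.07 on the log2 scale (adjusted p = 0.00122), and the adenine nucleotide carrier Slc25a5 by 0.37. The remaining calls lower were Slc25a40, Slc25a30, Slc25a46, Slc25a16 and Slc25a17, between -0.95 and -0.50. The -0.95 of Slc25a40 was -0.67 with its array below the array median set to it. The remaining calls higher were Slc25a51 and Slc25a18, and the controls of Slc25a18 were below the array median.

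Slc25a3, the phosphate carrier on which ATP synthesis depends, was bright on every array and did not pass the F test (adjusted p = 0.134). It read 11.80, 11.60, 11.67, 11.71 and 11.58 in controls and 11.58, 11.48, 11.62 and 11.55 at 4.5 h, a difference of -0.11 (adjusted p = 0.268). Besides Slc25a3, the cationic amino acid carrier Slc7a2 and the phosphate and anion carrier family member Slc17a2 had the F tests closest to 1 among the 20 members of brightest probe sets (adjusted p = 0.074 and 0.389), with differences of 0.16 and 0.10 at 4.5 h.

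Among the 38 amino acid carriers, 9 were called higher and 10 lower at 4.5 h (23.7% and 26.3%, beside 15.1% and 23.8% of all genes). Their median was 0.14 and became -0.05 with the values as deposited. Higher were Slc7a6, Slc7a1 (1.33), Slc1a4 (1.34), Slc38a2 (1.30), Slc43a1 (0.93) and Slc3a2 (0.57), the heavy chain that pairs with Slc7 light chains. The glycine carrier Slc6a9, the taurine carrier Slc6a6 and Slc43a3 (0.55), a family member that carries nucleobases, were higher too. Slc6a6 was 8.67, 8.47, 8.19, 8.34 and 7.97 in controls, 7.80 to 8.16 after minor trauma, 8.23 to 8.54 in shock, 8.11 to 8.43 at 1 h and 9.20, 9.77, 9.37 and 9.45 at 4.5 h. Only the 4.5 h arrays were high, by 1.12 ± 0.14 against control (adjusted p = 1.99e-06) and by 1.19 ± 0.15 against 1 h (adjusted p = 3.06e-06). Lower were the glutamine carriers Slc38a3 (-0.64) and Slc38a7 (-0.54), the hepatic neutral amino acid carrier Slc38a4, Slc38a6, the lysosomal arginine sensor Slc38a9 (-0.68), Slc36a1 (-0.75), the betaine and GABA carriers Slc6a12 (-0.90) and Slc6a13 (-0.84), Slc43a2 (at least 2.15-fold, with 2 of 4 arrays below the array median) and Slc1a2. Slc38a4 was 11.64 to 11.97 in controls and 11.49 to 11.61 at 4.5 h, lower by 0.24 ± 0.08 (log2 change -0.24, adjusted p = 0.0243), and the call ended without control 1 or 4 or 4.5 h array 1 or 2 (adjusted p of at most 0.0701).

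Of 25 metal carriers 8 were called higher and 4 lower at 4.5 h (32% and 16%, beside 15.1% and 23.8% of all genes), 13 were not called, and the median was 0.26. With the values as deposited the calls were 5 and 3. Besides Slc41a2, Slc41a1, Slc39a10 and Slc30a5, the higher ones were the iron and manganese importer Slc11a2 (1.02) and the zinc carriers Slc39a6 (0.91), Slc30a7 (0.74) and Slc39a1 (0.51). Lower were Slc39a8, the heme carrier Slc48a1 (-0.63), Slc39a11 (-0.54) and the copper importer Slc31a1. Slc31a1 was 9.23 to 9.60 in controls and 8.68 to 8.96 at 4.5 h, without overlap, and fell by 0.55 ± 0.10 on the log2 scale (adjusted p = 0.000144).

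Of the 25 carriers of inorganic ions 2 were called higher and 6 lower at 4.5 h (8% and 24%, beside 15.1% and 23.8% of all genes). Slc26a1, which exchanges sulfate, oxalate and bicarbonate at the hepatocyte membrane, was 9.50, 9.23, 9.53, 9.27 and 9.10 in controls, 9.16 to 9.60 after minor trauma, 8.91 to 9.07 in shock, 8.98, 8.73, 8.52 and 9.19 at 1 h, and 7.60, 7.36, 7.27 and 7.52 at 4.5 h. The 4.5 h arrays were below all others. It fell by 0.47 ± 0.13 on the log2 scale at 1 h (adjusted p = 0.0275) and by 1.89 ± 0.13 at 4.5 h (3.70-fold, adjusted p = 6.95e-10). Slc8b1, which lets calcium out of mitochondria in exchange for sodium, was 8.22 to 8.84 in controls and 7.01 to 7.85 at 4.5 h, and fell by 1.05 ± 0.17 on the log2 scale (adjusted p = 3.73e-05). The endosomal sodium-proton exchanger Slc9a9, at or below the array median on all 4.5 h arrays, was at least 1.43-fold lower. Slc12a5 (-0.63, or -0.37 with its 1 array below the median set to it), Slc20a2 (-0.44) and Slc12a9 (-0.39) were also lower, and the bicarbonate carrier Slc4a4 (0.90) and the potassium-chloride carrier Slc12a4 (0.69) were higher.

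Of the 13 carboxylate carriers 2 were called higher and 5 lower at 4.5 h (15.4% and 38.5%, beside 15.1% and 23.8% of all genes). Slc16a1, which carries lactate and pyruvate, was 9.48, 9.52, 8.94, 9.35 and 9.36 in controls, 9.46 to 9.70 in shock, 9.92, 9.89, 9.87 and 9.96 at 1 h, and 10.58, 10.39, 10.63 and 10.57 at 4.5 h. Each resuscitation time was above the one before without overlap, at 0.58 ± 0.12 (adjusted p = 0.00268) and then 1.21 ± 0.12 (adjusted p = 7.95e-08) over control. Slc16a9 was 4.86, 5.04, 5.57, 5.35 and 5.97 in controls and 2.91, 4.78, 3.12 and 4.22 at 4.5 h, of which 1 exceeded the array median. With the other 3 set to that median it was at least 1.64-fold lower (adjusted p of the fit = 0.000832). Slc16a5, Slc16a12, Slc16a7 (-0.68) and Slc13a2 were the others called lower. Slc13a2, below the array median on all 4.5 h arrays, was at least 1.30-fold lower (adjusted p = 0.0374), and the call ended without control 1, 3 or 4 or 4.5 h array 2 or 3 (adjusted p of at most 0.134).

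**Figure D5:**
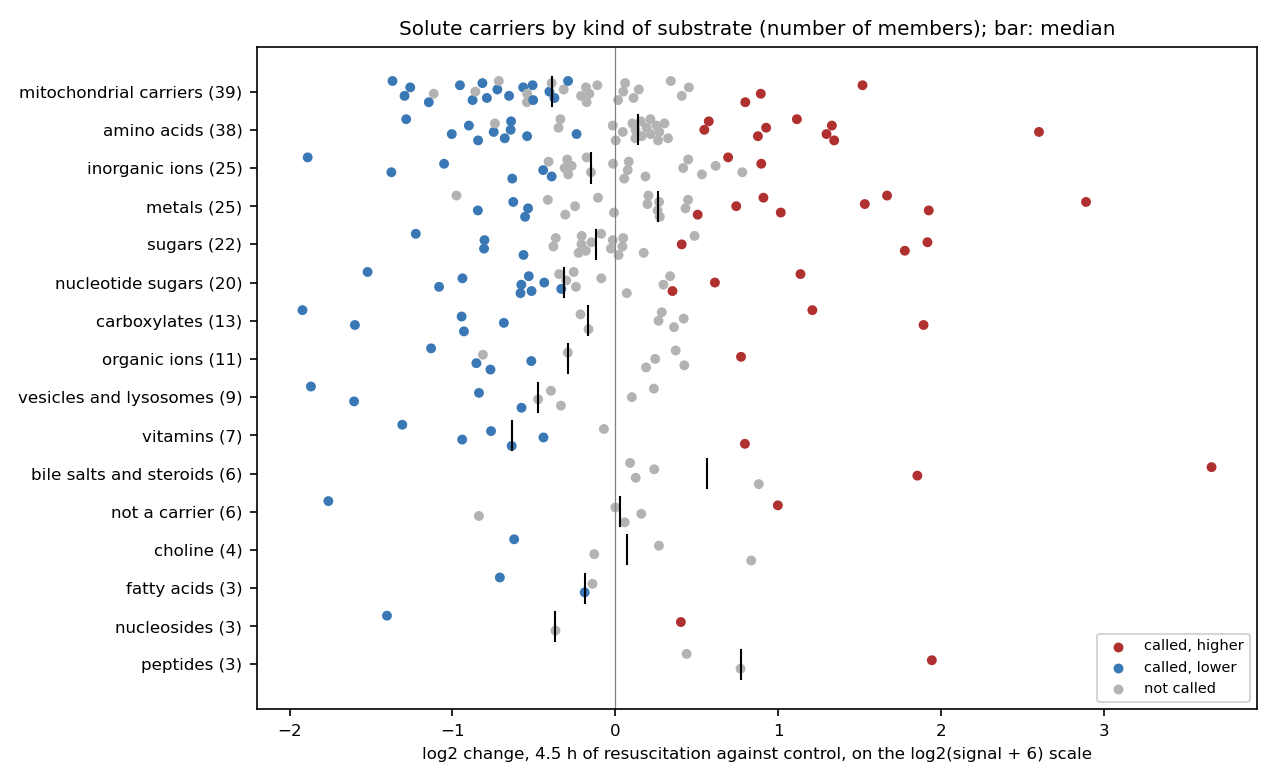
Log2 change at 4.5 h of resuscitation against control for each solute carrier, by substrate class (classes with 3 or more members); each point is a gene, coloured by whether it was called higher, lower or not, and the bar is the class median. Points are fitted changes, also where a group lay below the array median; the median is -0.39 for mitochondrial carriers, -0.32 for the Slc35 family and 0.26 for metal carriers.

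Among 22 members of sugar carrier families 3 were called higher and 4 lower at 4.5 h (13.6% and 18.2%, beside 15.1% and 23.8% of all genes). Slc2a6, Slc37a1, a sugar phosphate exchanger (1.78), and Slc37a3 (0.41) were higher. Slc2a5, the fructose carrier (at least 1.73-fold, with 2 of 4 arrays below the array median), Slc2a9, a urate carrier (-0.81), Slc2a8 (-0.56) and Slc5a3 were lower. The Slc35 family (20 members) had 3 higher and 9 lower (15% and 45%, beside the same shares of all genes), with a median of -0.32. Slc35f5 was 8.30 to 8.67 in controls and 9.40 to 9.82 at 4.5 h, up by 1.14 ± 0.12 without overlap (adjusted p = 1.27e-07). Slc35g1 was 6.09, 7.18, 6.94, 7.74 and 7.37 in controls and 5.25, 5.91, 5.49 and 5.51 at 4.5 h, below all of them, and fell by 1.52 ± 0.24 on the log2 scale (adjusted p = 2.71e-05). The others called were Slc35b3 (0.35) and Slc35a4 (0.61), higher, and Slc35d2 (-1.08), Slc35b2 (-0.94), Slc35b4, Slc35e2, Slc35c2, Slc35a3, Slc35a1 and Slc35a5 (-0.58 to -0.33), lower, which include the carrier of the sulfate donor PAPS (Slc35b2) and that of CMP-sialic acid (Slc35a1). Slc35b1, which exchanges ATP across the endoplasmic reticulum membrane, was not called (0.34, adjusted p = 0.0721).

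Of the 11 carriers of organic ions, which include carriers of drugs and bile constituents, 1 was called higher and 4 lower at 4.5 h. Those shares were 9.09% and 36.4%, beside 15.1% and 23.8% of all genes. Slc47a1, which exports organic cations into bile, was 9.80 to 10.35 in controls, 9.52 to 10.02 at 1 h and 8.87 to 9.21 at 4.5 h, and fell without overlap by 1.13 ± 0.13 on the log2 scale (adjusted p = 4.2e-07). Slc22a30 was 9.79 to 10.85 in controls and 9.40 to 9.53 at 4.5 h, lower by 0.85 ± 0.15 (log2 change -0.85, adjusted p = 0.000149). Slc22a23 (-0.77) and Slc22a18 (-0.52) were lower as well, and Slc22a5 was higher. Slc29a1, the equilibrative carrier of adenosine and other nucleosides, was 9.76, 8.89, 9.69, 9.51 and 8.87 in controls, 9.28 to 9.56 in shock, 9.18 to 10.07 at 1 h, and 7.86, 8.13, 7.97 and 7.81 at 4.5 h. Its 4.5 h arrays were below all others, and it fell by 1.40 ± 0.19 on the log2 scale against control (2.64-fold, adjusted p = 6.51e-06) and by 1.62 ± 0.20 against 1 h (adjusted p = 3.44e-06). Slc29a4 rose by 0.40 ± 0.15 (adjusted p = 0.0362), a call that ended without any 1 of 5 single arrays (adjusted p of at most 0.143).

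Among the 7 members of vitamin carrier families, Slc23a2 was higher at 4.5 h and 5 were lower (0 and 4 with the values as deposited). Those shares were 14.3% and 71.4%, beside 15.1% and 23.8% of all genes. The 5 lower were Slc19a2 for thiamine, Slc46a1 (-0.76) and Slc19a1 (-0.44) for folate, Slc23a1 for vitamin C (-0.64) and Slc46a3 (-1.31). All 4 calls among the 9 members of vesicle and lysosome carrier families were lower (44.4%, beside 23.8% of all genes). Slc66a2 was 9.77, 9.93, 9.52, 9.64 and 8.82 in controls, 9.88 to 10.28 at 1 h and 7.68, 7.22, 7.82 and 7.96 at 4.5 h, below all others, and fell by 1.87 ± 0.21 on the log2 scale (adjusted p = 6.02e-07), and fell by 2.40 ± 0.22 on that scale from 1 h (adjusted p = 6.76e-08). Of its 2 other probe sets 1 was called in the same direction and 1 in the opposite one. Slc18b1, the vesicular polyamine carrier, was 5.28 to 6.08 in controls and 3.19 to 4.90 at 4.5 h, with 1 of 4 arrays above the array median, and was at least 2.01-fold lower with the others set to it (adjusted p of the fit = 0.000139). Slc17a3, a urate exporter, fell by 0.84 ± 0.15 on the log2 scale (adjusted p = 0.000112). Slc66a1 (-0.58) was the fourth. In the smaller classes the calls lower included the fatty acid transport proteins Slc27a4 (-0.71, adjusted p = 0.00414) and Slc27a2 (-0.19, adjusted p = 0.0271), the acetyl-CoA carrier Slc33a1 (-0.46, adjusted p = 0.00764) and the choline carrier family member Slc44a3 (at least 1.4-fold lower with 3 of 4 arrays below the array median, adjusted p of the fit = 0.0239). The calls of Slc27a2 and Slc44a3 ended without any 1 of 4 and of 3 single arrays (adjusted p of at most 0.0798 and 0.104). The peptide carrier Slc15a4 and the urea channel Slc14a2 were not called (adjusted p = 0.0691 and 0.493 at 4.5 h).

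Of the 236 members 6 carry an Slc symbol without being carriers. Slc9a3r1, a scaffold that anchors transporters at the apical membrane, was 11.17 to 11.58 in controls, 10.95 to 11.26 in shock, 11.31 to 11.54 at 1 h and 12.26 to 12.51 at 4.5 h, up by 1.00 ± 0.09 (adjusted p = 1.99e-08). Its relative Slc9a3r2 was 6.31 to 7.05 in controls, 6.22 to 6.61 at 1 h and 4.46, 5.14, 5.43 and 4.32 at 4.5 h, with a fitted fall of 1.76 ± 0.20 on the log2 scale (adjusted p = 6.2e-07). With its 4.5 h arrays below the array median set to it, Slc9a3r2 was at least 3.15-fold lower. In both, the 4.5 h arrays did not overlap those of any other group, and neither was called at 1 h. Slc4a1ap was lower at 1 h, and Slc7a6os, Slc6a19os and Slc2a4rg-ps were not called against control.

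From 1 h to 4.5 h of resuscitation 88 members were called (37.3%, against 33.1% of all genes), 33 higher (14.9% of all genes) and 55 lower (18.2%), and with median centring the share higher moved from 37.5% to 26%. The largest rises in this interval were those of Slc41a2, Slc10a6, Slc39a10, Slc7a6 and Slc30a5, and the largest falls those of Slc66a2, Slc9a3r2, Slc45a3, Slc29a1 and Slc25a32. Among them are thus 2 of the genes that had risen in shock, beside Slc25a33 (-1.41), Slc16a6 (-1.39) and Slc25a47 (-0.78), while Slc20a1 at -0.86 missed the threshold (adjusted p = 0.0502). In the other direction Slc16a4 (0.97) and Slc25a34 (0.87) rose from their lower levels at 1 h, the latter call ending without 1 h array 4 (adjusted p = 0.0599). With their 1 h arrays below the array median set to it, the rises were 0.79 and 0.74. These comparisons and those with control share arrays, so their values are given side by side only.

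Transport genes outside the Slc symbols gave the following counts at 4.5 h, from lists chosen with earlier results of these data known, to be read beside the 15.1% higher and 23.8% lower among all genes. Of 34 measured genes of the wider solute carrier superfamily with other symbols (41 listed), 2 were higher and 14 lower (5.88% and 41.2%), with the organic anion carriers Slco2b1 (-1.09) and Slco2a1 (-0.79) lower and Slco3a1 (1.77) higher. Of 28 measured ABC transporters (32 listed), 3 were higher and 16 lower (10.7% and 57.1%), among them the peroxisomal fatty acid transporter Abcd3 (-0.64) and the sterol exporter Abcg8 (-1.22), lower, and the cholesterol exporter Abca1 (1.56), higher. Of 9 measured partners and ion pumps (12 listed), 2 were higher and 3 lower (22.2% and 33.3%), with the sodium pump subunit Atp1b3 (0.73) higher and the scaffold Pdzk1 (-0.87) lower. Of the 11 solute carriers left out by the rule (Slc37a4, Slc2a1, Slc2a2, Slc10a1, Slc25a15, Slc40a1, Slc30a1, Slc30a10, Slc39a4, Slc39a14 and Slc27a5), 2 were higher and 4 lower (18.2% and 36.4%), with the iron exporter Slc40a1 (-2.86) and the bile salt importer Slc10a1 (-0.83) lower and the zinc importer Slc39a14 (2.11) higher.

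Of the 110 calls at 4.5 h, 52 came from genes with other probe sets that passed the filter, and in 34 of these at least 1 other probe set was called in the same direction. In 4 (Slc23a2, Slc37a3, Slc39a6 and Slc5a3) the 1 other probe set had the opposite sign. Over the omissions of a single array the count at 4.5 h stayed between 98 and 117, and within the 10 arrays with dap signal it was 59 and within the 10 without it 69. No called change of the genes named by rule reversed its sign within either set of arrays, but in each set 69 of the 148 stayed the same and 79 were weaker. Both sets are parts of the arrays that gave the calls. The lack of reversals is therefore no independent support and cannot exclude an effect tied to dap.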

How the data were processed

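Whole-liver RNA from 20 samples was hybridised to Affymetrix Mouse430_2 arrays after oligo-dT reverse transcription and in vitro transcription with biotin, per the labels' protocols. The authors deposited 1 linear intensity per probe set and array, which the submitters' processing notes tie to the MAS5 method. Its version and any scaling are not stated in what was used here. These intensities were not on a common scale. They were taken to log2(intensity + 6), quantile normalized and kept where a probe set lay above its array median on at least 3 arrays. Probe sets with 1 gene in the platform annotation were used, and the one with the highest mean stood for its gene. Group means of all 20 arrays were fitted with limma 3.58.1 in R 4.3.3 (moderated variances with an intensity trend), 7 contrasts and an F test were taken, and p-values were Benjamini-Hochberg adjusted over 12832 genes. Where every array of the lower group was at or below the array median, 4.6, that median stood in for it and the fold is given as at least that size. The same was done for many named changes where only some of those arrays were below it. The others of that kind are given as fitted values. The fit was tested on simulated data. Figures were drawn with matplotlib 3.10.9.

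The members, substrate classes and gene lists were chosen with earlier results of these data known. Genes named by rule were, in each comparison with control, the 8 called members with the largest change in each direction, 5 in the other comparisons, per class the 2 with the smallest F test p and the one of highest mean, and the 3 with an F test closest to 1 among the 20 of highest mean. Other members named complete a list of calls of a class or pattern and were chosen after their values were seen. The alternatives were other scalings, pseudocounts, filters, probe set rules and fits, the dap spike-in as a block and within its 2 sets, the replicate block, and each array left out in turn. The other array platform of the study was not analysed here.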

Additional observations from a re-analysis of the deposited data

Results flagged for a closer look

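In 256 tests of a single array against the others of its group, over the named genes, 12 arrays stood apart by Dixon's test. Chance alone sets an array apart in about 1 in 20 such tests, which is about as many as were found. The 256 tests are too few to cover all 5 groups for each of the 64 named genes. All flags lay in controls, in shock or at a resuscitation time, so their absence after minor trauma does not show that those arrays passed.

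Slc25a51 was 10.05 on shock array 3 (9.24 to 9.33 on the others) and 10.61 on 4.5 h array 1 (10.82 to 10.85). Slc30a5 was 9.52 on control 5 (8.24 to 8.53), a value within the range of the minor trauma arrays, and 8.35 on 1 h array 1 (8.79 to 8.83). On the same 1 h array Slc19a2 was 9.91 (9.52 to 9.57) and Slc35g1 7.30 (6.65 to 6.76). Slc39a8 was 8.18 on control 1 (7.93 to 7.98), and Slc16a1 was 8.94 on control 3 (9.35 to 9.52). Slc16a5 was 4.36 on shock array 4 (2.88 to 2.99), all below the array median. Slc1a2 was 7.25 on 1 h array 4 (7.95 to 8.08), and Slc9a3r2 was 6.22 on 1 h array 3 (6.59 to 6.61). Slc27a2 was 12.56 on shock array 3 (12.44 on each of the others).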

How the results depend on the processing

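Of 148 called changes of the 64 genes named by rule, 49 kept their call under all 36 alternatives, 50 lost it under at least 1 of the 20 omissions of an array, and none reversed; the causes were not tested. Counts of members called are given in the order minor trauma, shock, 1 h and 4.5 h against control, shock against minor trauma, 1 h against shock, 4.5 h against 1 h, and F test, where the main counts were 14, 7, 27, 110, 26, 1, 88 and 123. With the values as deposited they were 12, 6, 15, 74, 10, 0 (14 at an unadjusted p under 0.05), 45 and 83. Median centring gave 22 after minor trauma, a filter off gave 9, the dap block 8, and a fit of only the groups compared 0 by limma (32 at an unadjusted p under 0.05). Array weights gave 15 in shock. Between shock and 1 h the count was 2 with a pseudocount of 18, a filter at 10 arrays, the mean of probe sets or no intensity trend, and 7 with array weights or only the groups compared. Without control 5 and minor trauma 3, shock gave 11 and 1 h against shock 5. Within the arrays with dap the counts were 4, 1, 10, 59, 6, 2, 33 and 62. Within those without dap they were 0 (21 at an unadjusted p under 0.05), 1, 5, 69, 0 (30), 0 (10), 50 and 43, both with fewer arrays. Leaving out single arrays gave 0 to 29, 4 to 11, 20 to 31, 98 to 117, 13 to 32, 0 to 2, 65 to 98 and 108 to 135.

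With the replicate number as a block, which also takes control 5 out of the fit because no other array has its number, the counts were 31, 10, 30, 111, 27, 3, 93 and 127. Deviations of same-numbered arrays correlated at -0.076 to 0.165 over 36 pairs, with 3 above 0.1, so the numbers were not taken as a pairing. Signals near the array median limit what can be said of the dimmer carriers.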
